A study of Caenorhabditis elegans with 2 samples.

Results

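Small nucleolar RNAs (snoRNAs) are short noncoding RNAs that guide the chemical modification of ribosomal and spliceosomal RNAs. Box C/D snoRNAs guide ribose methylation, and box H/ACA snoRNAs guide pseudouridylation. Many snoRNA genes lie inside introns of protein-coding genes, where the snoRNA can be cut out of the host transcript or can be transcribed from a promoter of its own. SNPC-4 is a subunit of SNAPc, the small nuclear RNA activating protein complex, which binds the proximal sequence element (PSE) upstream of small nuclear RNA (snRNA) genes.

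The data are peak lists from chromatin immunoprecipitation and sequencing (ChIP-seq) of tagged SNPC-4 in whole young adult Caenorhabditis elegans, males and females pooled. All samples form 1 group of 2 biological replicates of strain YL457, genotype unc-119(ed3)III with the integrated transgene vrIs87 and the rescue marker unc-119(+). Per the labels, the pie-1 promoter, known for germline expression, drives GEI-11::GFP::GEI-11 3'UTR in vrIs87. A further label gives SNPC-4 a GFP-FLAG tag at its C terminus. Both samples are labelled as ChIP-seq against SNPC-4. The labels do not say whether GEI-11 and SNPC-4 are names of the same protein, and which construct was used is not settled. The series has no second condition, and no control library was used here.

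The genes described here are the snoRNA genes of the Ensembl 115 annotation (WBcel235, the same assembly as ce11) whose whole span lies within a protein-coding gene on the same strand. They number 183 of 346 snoRNA genes, among 46926 annotated genes. They lie in 156 different host genes, of which 133 hold 1 member, 20 hold 2, 2 hold 3 and 1 holds 4. Of the 183, 143 overlap no exon of the host and 40 overlap one. The other 163 snoRNA genes comprise 33 inside a protein-coding gene on the opposite strand only and 130 with no such gene on either strand.

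A gene was called bound where a peak summit of the thresholded set, 1648 peaks called on both replicates pooled, lay within 500 bp of its annotated start. By that rule 41 of the 183 nested snoRNA genes were bound and 142 were not, a share of 22.4% (exact 95% interval 16.6 to 29.1%). Across all 46926 genes the share was 5.11%. When each replicate's own 1648 strongest peaks were used, replicate 1 gave 41 bound members and replicate 2 gave 45, a mean share of 23.5% ± 1.55 (SD, n = 2). Of the 41, 36 were bound in both replicates as well.

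Outside any protein-coding gene of the same strand, 61 of 163 snoRNA genes were bound, which is 37.4% (29.98 to 45.3%), and both replicates gave 62. The share for nested genes was 22.4%, and the difference was not tested. The intervals of both shares cover counting error over genes only, and genes that share a peak or a host are not independent. In the full pooled list of 30000 peaks, which includes background regions, 120 of 183 nested members (65.6%) and 102 of 163 other snoRNA genes (62.6%) had a summit in the window. The share over all genes in that list was 46.6%.

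The 41 bound members fell into 3 kinds by what lies just upstream, and the sequences that distinguish them are shown here before their values. The words searched were chosen after the sequences of bound genes had been seen, so their counts describe these genes and test nothing. In the sequences below the positions are counted from the snoRNA start as 0, negative upstream, on the ce11 assembly and in the direction of the gene.

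The PSE-like pair is AACNCG followed after 5 bases by TGTC, searched in the 110 bases before the start. It occurred in 12 of the 41 bound members and in 0 of the 142 unbound members. Its first base lay at a median of −58 bp (range −80 to −56). Capitals mark the searched letters in 6 of the 12 members: 3 of the strongest, ZK994.7 with its wider spacing, the SmY RNA gene smy-2, and C02C6.13, the lowest in signal.

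C16D9.11 (chrV:8229005-8229034, minus strand): tctgcggAACcCGcgtagTGTCgggcgcgg
W04D2.7 (chrV:12491215-12491244, plus strand): agagcgaAACcCGccaagTGTCgggcgcgc
C08D8.3 (chrV:8349044-8349073, plus strand): tcggcgaAACtCGtggagTGTCggcggcgc
ZK994.7 (chrV:8500492-8500521, plus strand): ttggcgaAACcCGactcaTGTCggccactc
smy-2 (chrIV:9511505-9511534, minus strand): gtggcggAACcCGgcagaTGTCggttcaaa
C02C6.13 (chrX:15552524-15552553, minus strand): gtggccaAACtCGaaaatTGTCggccgccg

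Across all 46890 nuclear genes the pair stood on the gene strand before 110 starts (0.235%) and on the other strand before 21. It stood before 30 of the 129 genes for snRNA, spliced-leader RNA and SmY RNA, and before 12 of 19973 protein-coding genes. Among the other snoRNA genes, 22 of the 61 bound and 1 of the 102 unbound carried it.

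The tRNA-like box pair is an A box, TGGCNNAG, and a B box, GTTCNANNC, with at most 1 mismatch each and starts 25 to 70 bp apart. A and B boxes are the internal promoter elements of tRNA genes that RNA polymerase III factors recognise. The search ran on the gene strand from 110 bases before the start to 10 bases into the gene. The pair occurred in 17 of the 41 bound members and in 10 of the 142 unbound members. The A box began at a median of −62 bp and the B box at −16 bp in the 17 bound members, so the pair mostly ended at or near the annotated 5′ end. With no mismatch allowed the pair remained in 5 bound members and 1 unbound member, so the count rests on the mismatch allowance. Capitals mark the searched letters in 4 of those 5 and in the unbound T24H7.6.

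F55A11.10 A box (chrV:11782920-11782943, plus strand): cgcgcaTGGCgcAGgcggttagat
F55A11.10 B box (chrV:11782972-11782995, plus strand): ccgctaGTTCgAcaCctatcgagc
Y43F8C.22 A box (chrV:19643223-19643246, minus strand): tacccgTGGCttAGtggctaacgc
Y43F8C.22 B box (chrV:19643179-19643202, minus strand): ttccggGTTCgAttCccacccacg
ZK546.18 A box (chrII:4942558-4942581, minus strand): cacgggTGGCgcAGtggtaacgcg
ZK546.18 B box (chrII:4942514-4942537, minus strand): ccaccaGTTCgAttCtcaatgcac
R166.7 A box (chrII:10545362-10545385, minus strand): cacttgTGGCgcAGtcggttgcgt
R166.7 B box (chrII:10545317-10545340, minus strand): tcgttgGTTCaAttCcttcttatc
T24H7.6 A box (chrII:6248651-6248674, plus strand): cctcaaTGGCggAGtggttgtatg
T24H7.6 B box (chrII:6248694-6248717, plus strand): atgtagGTTCgAccCccgctttac

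The same search found the box pair at the starts of 965 of the 46890 nuclear genes (2.06%) on the gene strand and of 988 on the other strand. Run inside the 612 nuclear tRNA genes, it found 519 (84.8%). On the other strand it found 0 of the 41 bound and 7 of the 142 unbound members. Among the other snoRNA genes it found 21 of the 61 bound and 7 of the 102 unbound. No snoRNA gene carried both pairs. The remaining 12 bound members carried neither in the bases searched.

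**Figure D1:**
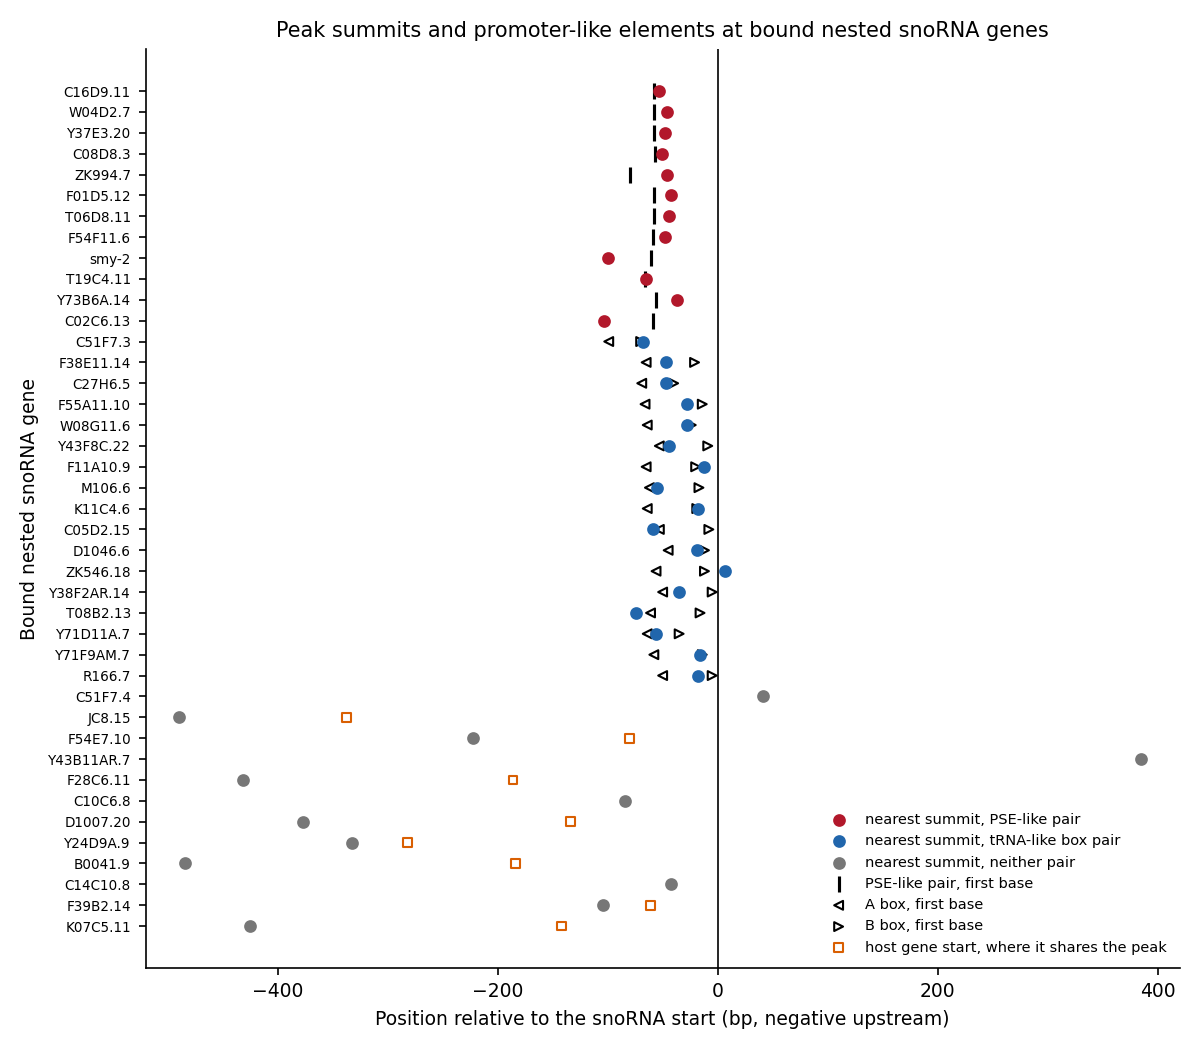
Each row is 1 of the 41 bound nested snoRNA genes, ordered by kind and then by signal, and the horizontal axis is the position relative to the snoRNA start in bp. Filled points are nearest summits, bars and triangles are the first bases of the searched words, and open squares are host gene starts that share the peak. The 29 members with either pair have summits within 110 bp of the start, while 8 of the 12 with neither pair lie farther away.

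The 12 members with the PSE-like pair held the strongest peaks. Their median signal, the authors' own value per peak, was 1027 (range 44.1 to 1367), and 10 of the 12 ranked among the 100 strongest of the 1648 thresholded peaks. Summits lay at a median of −48 bp (range −103 to −37) and downstream of the first base of the pair in 10 of the 12. The exceptions were smy-2, with the summit at −100 bp and the pair at −61 bp, and C02C6.13, with the summit at −103 bp and the pair at −59 bp. The peaks of W04D2.7, Y37E3.20, C08D8.3, F01D5.12, T06D8.11 and T19C4.11 also lay within 500 bp of the start of another annotated noncoding RNA gene. Signals of the 2 replicates are those of their own lists, and their scale may not match that of the pooled list.

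C16D9.11, in intron 27 of rol-3, which encodes a receptor tyrosine kinase, had the highest signal of all nested members. Its pooled peak had a signal of 1367 at −53 bp and ranked 6, and its signals were 768 in replicate 1 and 596 in replicate 2. W04D2.7, in the gene for the innexin INX-11, had a pooled signal of 1360.0 and replicate signals of 800 and 539. Both genes stood in the top 10 of each replicate's list.

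Y37E3.20, in pcyt-2.1, had a pooled signal of 1297 and replicate signals of 668 and 600. C08D8.3, in C08D8.1, had a pooled signal of 1221 and replicate signals of 705 and 521. ZK994.7, in the peroxidasin gene pxn-1, had a pooled signal of 1127 and replicate signals of 573 and 541. ZK994.7 is the member whose pair lies farthest upstream, at −80 bp, while its summit at −46 bp sits where the others' summits sit.

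F01D5.12, in F01D5.10, had a pooled signal of 1065 and replicate signals of 586 and 478. T06D8.11, in plpr-1, had a pooled signal of 989 and replicate signals of 542 and 442. F54F11.6, in the chemoreceptor gene sre-45, had a pooled signal of 680.0 and replicate signals of 352 and 315. All 3 were higher in replicate 1, as were the other 9 members of this kind.

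The gene smy-2 is annotated as a snoRNA but named for SmY RNA, a nematode RNA linked to trans-splicing, and its peak also lies within 500 bp of the start of smy-1. Its pooled signal was 409, with 201 in replicate 1 and 189 in replicate 2. T19C4.11, in the G protein alpha subunit gene gpa-1, had a pooled signal of 342 and replicate signals of 190 and 145. Y73B6A.14 had a pooled signal of 214 and replicate signals of 118 and 98.8. For W04D2.7 and T19C4.11, 81.1% and 64.0% of the 32-base words within 250 bp of the start were unique in the genome, and the part of repeated sequence in their signals was not tested.

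C02C6.13, in lron-3, stood apart from the other 11. Its pooled signal was 44.1 and its rank 1235, with 29.7 in replicate 1 and 14.5 in replicate 2, and it was not among the 1648 strongest peaks of replicate 2. Its upstream 100 bases had a GC content of 38%, against 52 to 62% in the other 11 members of this kind.

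The 17 members with the tRNA-like box pair had lower and more even signals, from 52.0 to 145 with a median of 77.4, and none ranked among the 100 strongest peaks. Their summits lay at a median of −35 bp (range −74 to 7) and fell between the first bases of the A and B boxes in 11 of the 17. All 17 were bound in both replicates. Some of these peaks also lay within 500 bp of other starts. Those of F38E11.14 and F55A11.10 lay near a protein-coding start, of wrt-3 and F55A11.11, and near a noncoding RNA start. Those of K11C4.6, C05D2.15, D1046.6 and T08B2.13 lay near a noncoding RNA start, the last 2 also near a pseudogene start. Such peaks cannot be assigned to 1 gene from these files. The lowest of the PSE-like kind apart from C02C6.13, at 214, exceeded the highest of this kind, at 145.

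C51F7.3, in frm-7, had a pooled signal of 145, with 61.5 in replicate 1 and 92.8 in replicate 2. F38E11.14, in the cyclic nucleotide-gated channel gene cng-3, had 143 pooled, 86.9 in replicate 1 and 59.8 in replicate 2. C27H6.5, in unc-41, which encodes a synaptic vesicle endocytosis protein, had 143 pooled, 65.6 in replicate 1 and 77.4 in replicate 2. The replicates do not order these 3 the same way.

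F55A11.10 had a pooled signal of 109, with 52.4 and 58.3 in the replicates. W08G11.6 had 102 pooled, with 58.6 and 45.1 in the replicates. Y43F8C.22 had 98.5 pooled, with 51.4 and 42.7 in the replicates. The weakest, R166.7 in the kinase gene mnk-1, had 52.0 pooled, with 23.96 in replicate 1 and 21.8 in replicate 2. ZK546.18, in the Mediator subunit gene mdt-4, had 1 of the 3 largest replicate ratios, with 48.6 in replicate 1 and 21.1 in replicate 2.

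**Figure D2:**
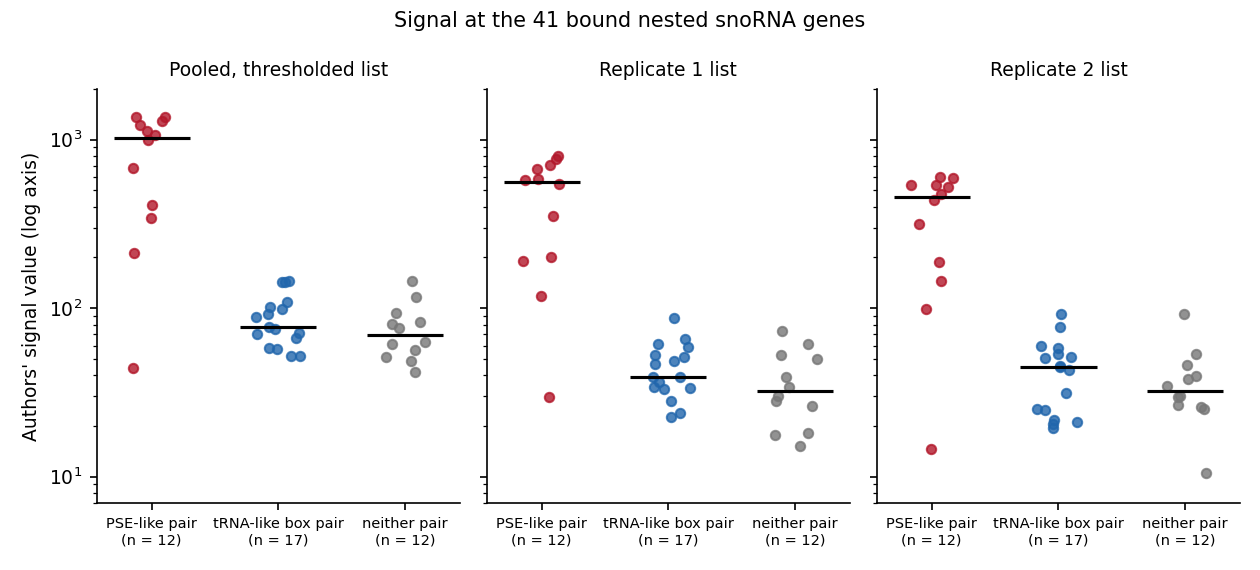
Each point is 1 bound nested snoRNA gene, the vertical axis is the authors' signal value on a log scale, and the line is the median. Panels show the pooled thresholded list and the list of each replicate. The medians are 1027, 77.4 and 69.8 in the pooled list for the PSE-like pair, the tRNA-like pair and neither, and the PSE-like kind is highest in both replicates too.

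Of the 12 members with neither pair, 8 shared their peak with the start of the host gene, and 5 of those 8 hosts encode ribosomal proteins. These 8 snoRNA genes start a median of 163 bp after the host start (range 61 to 337), and the shared summit lay at a median of −198 bp from the host start (range −300 to −43). In 6 of the 8 the peak also lay within 500 bp of the start of another protein-coding gene, such as ska-3 at F54E7.10 and rps-26 at F39B2.14. These peaks cannot be assigned to 1 of the genes from these files. The signal of the 12 ranged from 42.0 to 145 with a median of 69.8, and 8 of the 12 were bound in both replicates.

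JC8.15, in tag-115, had a pooled signal of 117, with 73.2 in replicate 1 and 39.4 in replicate 2. F54E7.10, in the ribosomal protein gene rps-12, had 94.2 pooled, with 52.5 and 37.7 in the replicates. K07C5.11, in nol-56, which encodes a core protein of box C/D snoRNA particles, was the weakest bound member at 42.0 pooled. It had 26.2 in replicate 1 and 10.5 in replicate 2, the largest replicate ratio at 2.50, and it was not among the 1648 strongest peaks of replicate 2. F39B2.14, in the ciliary transition zone gene tmem-107, had 48.6 pooled, with 28.1 and 25.04 in the replicates. The remaining 4 of this kind (F28C6.11, D1007.20, Y24D9A.9 and B0041.9) lie in rpl-26, rpl-24.1, rpl-7A and rpl-4, with pooled signals of 80.7, 63.3, 61.3 and 56.5. These 4 are named as the rest of a group of 8, with their values seen. D1007.20 and B0041.9 were not bound in replicate 1, with signals of 17.7 and 15.3 there and 34.3 and 30.2 in replicate 2.

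The 4 others with neither pair share no peak with the host start. C51F7.4 has the same peak as its neighbour C51F7.3, with the summit inside the gene at 41 bp, so the 41 bound members rest on 40 peaks. The tRNA-like pair of C51F7.3 lies inside C51F7.4, on the same strand and just past the 10 bases searched there. C51F7.4 was therefore counted with neither pair. The highest signal of that kind, 145, is the signal of this shared peak. C14C10.8, in ril-2, had 51.3 pooled, with 18.05 in replicate 1 and 26.5 in replicate 2, and a summit at −42 bp. It was not bound in replicate 1. C10C6.8 had a summit at −84 bp and Y43B11AR.7, in rps-4, at 385 bp. That last summit is the one farthest downstream among the bound members, and it lies within 500 bp of the start of the protein-coding gene Y43B11AR.3.

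Summits nearest to the 41 bound members lay at a median of −48 bp, with quartiles of −84 and −35 bp, and at −56 bp in replicate 1 and −50 bp in replicate 2. They lay upstream of the start in 38 of 41 and within 110 bp of it in 33. The other 61 bound snoRNA genes had the same median, −48 bp (quartiles −61 and −24). Of the 33 near summits, 29 belonged to members with either pair, and of the 8 summits farther away, 7 were shared with the host start and none belonged to a member with a pair.

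Signal at the bound nested genes had a median of 92.3 (quartiles 63.3 and 214), the 77.9th percentile of the thresholded peaks, against 133 (quartiles 85.9 and 405) and the 86.7th percentile at the other bound snoRNA genes. Split by kind, nested and other genes gave a median of 1027 (n = 12) against 433 (n = 22) for the PSE-like pair. For the tRNA-like pair the medians were 77.4 (n = 17) and 96.5 (n = 21), and for neither pair 69.8 (n = 12) and 111 (n = 18). The nested genes were thus the higher for the PSE-like pair and the lower for the other kinds, and none of these differences was tested.

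The Spearman correlation between the replicates' signals over the 41 bound members was 0.81, and it was not computed within a kind. These members were picked by the pooled signal and share both libraries, so they are not independent. The ratio of replicate 1 to replicate 2 ran from 1.06 to 2.04 in the PSE-like kind. It ran from 0.554 to 2.30 in the tRNA-like kind and from 0.507 to 2.50 with neither pair. Replicate 1 was higher at 27 of 41, with a median ratio of 1.16, and the median ratio over 1595 thresholded peaks listed in both replicates was 1.12.

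Among the 142 unbound members, 79 had a summit of the full pooled list in the window, with a median signal of 14.7 (range 4.78 to 36.4), and 63 had none. The lowest thresholded peak had a signal of 36.6, so the members nearest to the threshold were K07C5.11 inside it at 42.0 and T24H7.6 outside it at 36.4. T24H7.6 carries the tRNA-like pair without a mismatch, and it had 16.7 in replicate 1 and 12.2 in replicate 2. The next were F17C11.14 in the elongation factor gene eef-1G at 34.4 and H06I04.9 in ubl-1, which encodes a ubiquitin-like protein fused to a ribosomal protein, at 34.3. C24A1.8 in elf-1 had 33.6 and C16A3.11 in rps-13 had 30.3. F17C11.14 had no summit in the list of replicate 2 and C16A3.11 none in that of replicate 1, and the pooled summits of F17C11.14, C24A1.8 and C16A3.11 lay 341 to 420 bp downstream of the snoRNA start.

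Of the 27 nested members with the tRNA-like pair, 25 appeared in the pooled list, the 17 bound ones and 8 unbound ones with a median signal of 22.8. Bound members are in that list by construction, so only the 8 of 10 unbound carriers are informative. Of all 142 unbound members 79 were listed (55.6%), and of all genes 46.6%. All 12 members with the PSE-like pair were bound.

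**Figure D3:**
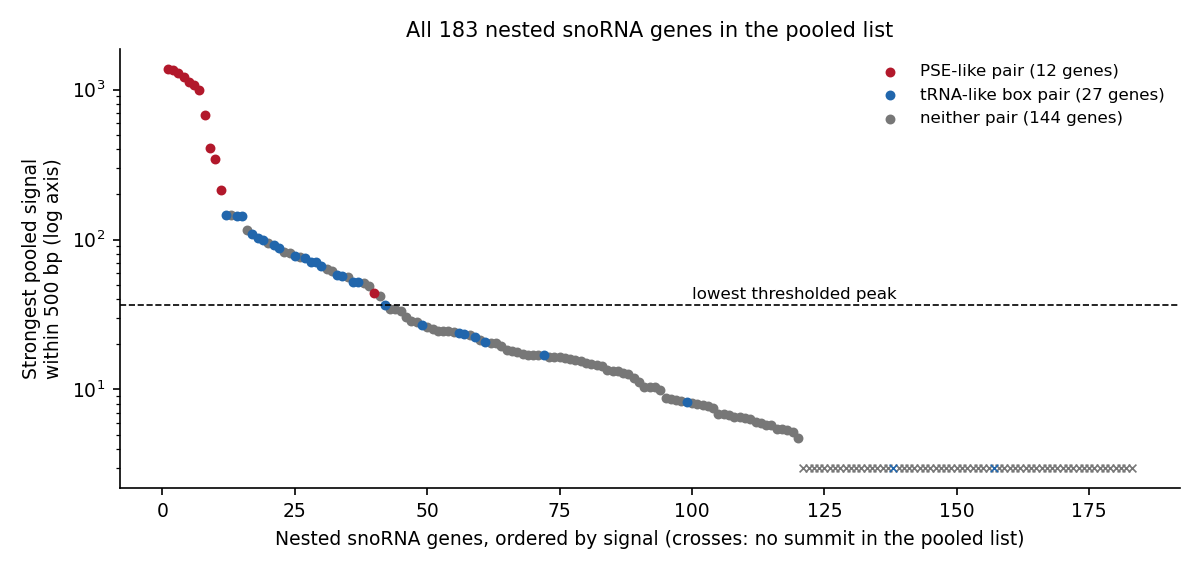
The 183 nested snoRNA genes are ordered along the horizontal axis by the strongest pooled signal within 500 bp of the start, shown on a log axis. Crosses along the bottom are the 63 members with no pooled summit, and the dashed line is the lowest thresholded peak, at 36.6. The 11 highest members all carry the PSE-like pair, and the bound members with the tRNA-like pair lie between 52.0 and 145.

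The hosts differed between kinds. Hosts were grouped by gene name, and their functions were not checked. Of the 183 members, 19 lie in 13 different ribosomal protein genes (rpl-, rps- and rla- names). A further 5 lie in 3 genes grouped as translation factors (eef-1G, iff-2 and eif-4A3). The RNA processing and nucleolus group holds 6, in nol-56 and prp-8, and 153 lie in all other genes, ubl-1 among them. Bound members numbered 6 of 19, 0 of 5, 1 of 6 and 34 of 153 in that order. All 12 PSE-like and all 17 tRNA-like bound members lie in the other genes, and 6 of the 12 bound members with neither pair lie in ribosomal protein genes. The tRNA-like hosts include fars-1, cfim-2 and rbm-34. The grouping by name therefore does not show that hosts of these kinds lack a role in translation or RNA processing.

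The start of the host was itself bound for 38 of the 183 members, which is 26 of the 156 different hosts (16.7%), against 4.04% of the starts of all 19985 protein-coding genes. It was bound for 10 of the 41 bound members (24.4%, interval 12.4 to 40.3%) and for 28 of the 142 unbound ones (19.7%, interval 13.5 to 27.2%). By kind, the host start was bound for 1 of 12 PSE-like members, 0 of 17 tRNA-like members and 9 of the 12 with neither pair. It was bound for 13 of the 19 members in ribosomal protein genes, or 10 of 13 different hosts, and for 6 of 6 in the RNA processing group, which rest on 2 hosts, nol-56 and prp-8. That group was made by name and cannot stand for RNA processing genes as a whole. Among the other genes, the starts of uaf-1, uaf-2, utp-20, cfim-2 and rbm-34 were not bound, while those of prpf-4 and hrpu-2 were. The total depends on the window, since 18 members had a bound host start with 250 bp in place of 38 with 500 bp.

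The 3 hosts with the most members show members of the same gene side by side. Of the 4 in nol-56, K07C5.11 in the first intron was bound, through the peak of the host start, with its summit at −425 bp. It starts 142 bp after the host start, and the other 3 start 1116 to 2066 bp after it, out of reach of that peak. Those 3, K07C5.10, K07C5.12 and K07C5.18, lie in introns 6, 5 and 7 and had pooled signals of 17.0, 17.0 and 12.7. K07C5.10 and K07C5.12 share a pooled summit. The 3 in the topoisomerase gene top-2 (K12D12.6, K12D12.7 and K12D12.8) had no summit in the pooled list, although the top-2 start was bound with a signal of 60.8. The 3 in the ribosomal protein gene rpl-6 had 17.1 at R151.11 and R151.12, which share a summit, and 10.4 at R151.13, and the rpl-6 start was not bound.

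Position in the intron also differed by kind. PSE-like members had a median of 385.5 intron bases before the snoRNA start (range 149 to 5378, n = 12) and lay in introns of median length 765.5 bp. The tRNA-like members had 143 bases before the start (range 68 to 5109, n = 17) in introns of median length 284 bp. Members with neither pair had 30 bases before the start (range 6 to 176, n = 10), and the unbound members 128 bases (range 13 to 15843, n = 111). No PSE-like member had fewer than 149 intron bases before it, and no tRNA-like member fewer than 68. Overlap with a host exon was seen in 3 of 41 bound and 37 of 142 unbound members.

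The 100 bases before the start had a median GC content of 56% (quartiles 50 and 60%) in the 41 bound members and 39% (quartiles 34 and 45%) in the 142 unbound members. By kind the medians were 57% for both pairs and 47% for neither. In the other snoRNA genes they were 54% in the bound and 40.5% in the unbound. Base composition therefore moves with binding, and its part in the result was not tested. The share of members with under 90% unique 32-base words was 3 of 41 bound and 11 of 142 unbound.

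**Figure D4:**
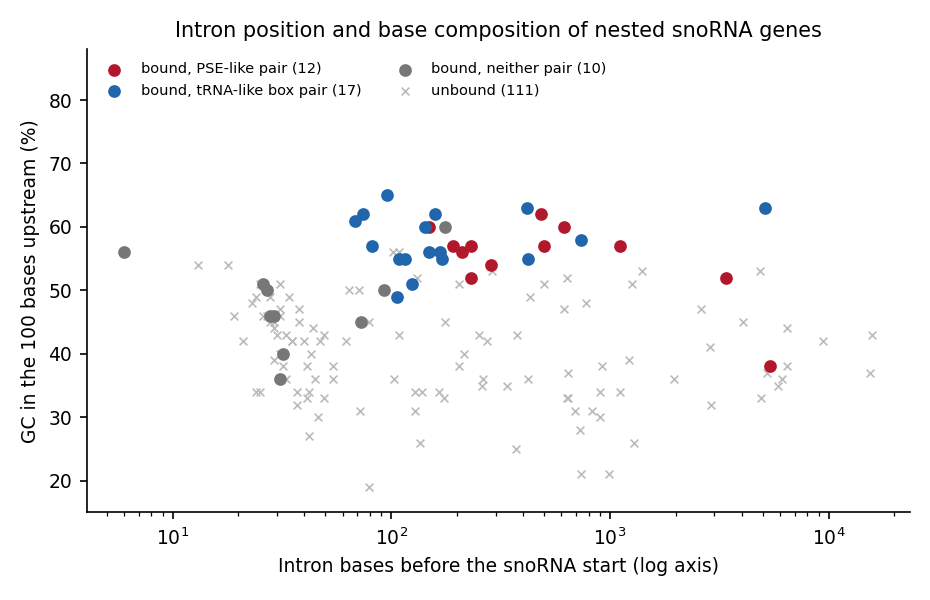
Each point is a nested snoRNA gene held by an intron, with the intron bases before its start on a log axis and the GC content of the 100 bases upstream in percent. Coloured points are the bound members by kind and grey crosses are the unbound members. Bound members with either pair lie at 49 to 65% GC apart from C02C6.13 at 38%, and those with neither pair lie mostly near 30 bases from the previous exon.

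Features of the snoRNA itself also varied. An ACA trinucleotide ending 3 bases before the 3′ end, as in box H/ACA snoRNAs, was present in 15 of 41 bound members (36.6%, interval 22.1 to 53.1%) and 30 of 142 unbound members (21.1%, interval 14.7 to 28.8%). It was present in 0 of 12 PSE-like, 8 of 17 tRNA-like and 7 of 12 members with neither pair. A C box (NTGATGA, at most 1 mismatch) near the 5′ end with a D box (CTGA) near the 3′ end was found in 6 of 41 bound and 14 of 142 unbound members. Genes under 100 bases long made up 8 of 12 PSE-like, 7 of 17 tRNA-like and 3 of 12 members with neither pair, against 30 of the 142 unbound. The searches leave most members in neither snoRNA class.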

How the data were processed

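The authors deposited ChIP-seq peak lists on ce10 and ce11, of which the 4 ce11 lists were used: 30000 peaks and background regions for each replicate and for both replicates pooled, and a thresholded set of 1648 peaks. Of the deposited columns, the position, the signal value and the summit offset in bp of each peak were used. The sources used here do not give the signal's scale, the aligner, the peak caller, their versions or the reproducibility threshold. The signal therefore only ranks and describes peaks within a list, and the thresholded set was checked to be the 1648 strongest pooled peaks. The lists hold no read numbers, so depth is unknown.

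Host genes, distances and sequences came from Ensembl 115 and WBcel235. A replicate was called bound from its own 1648 strongest peaks. Shares carry exact (Clopper-Pearson) 95% intervals. With 1 group no test was made. Unique words are 32 bases long. Summit placement was tested on simulated data. Python 3.11.15, pandas 2.3.3, numpy 2.4.6 and scipy 1.17.1 were used. The genes named in full were the 20 strongest and 5 weakest bound members, the 5 strongest unbound, the 3 with the largest replicate ratio and the members of the 3 hosts with most members; others are named as the rest of a small group, chosen after their values were seen. The members and lists were chosen with earlier results of these data known, and the searched words were chosen from the data.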

Additional observations from a re-analysis of the deposited data

How the results depend on the processing

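No paired analysis was possible because the samples form 1 group. The 41 bound members became 31 to 57 under the other windows, overlap rule, stricter threshold, merged peaks and member definitions, and 120 with all pooled peaks. The share bound was 18.6% with 250 bp, 31.1% with 1000 bp, 16.9% by overlap of peak and gene, 19.1% with the stronger 824 peaks, 65.6% with all pooled peaks, 26.6% without members that overlap a host exon, 25.5% with hosts on either strand, and 22.4 to 24.6% leaving out a replicate. The median summit was at −21 bp with all pooled peaks and at −56 to −50 bp leaving out a replicate. The median percentile was 80.9 with 250 bp, 70.4 with 1000 bp, 82.8 by overlap, 62.5 with the stronger 824 peaks, 85.3 with all pooled peaks, 78.4 without exon overlap, 81.25 with either strand, 81.8 without peaks near other short noncoding genes, and 77.18 to 77.25 leaving out a replicate. Members with a bound host start numbered 18 with 250 bp, 8 by overlap, 21 with the stronger 824 peaks, 132 with all pooled peaks, and 33 to 36 leaving out a replicate. Other bound snoRNA genes numbered 102 with all pooled peaks and 62 leaving out either replicate. Chosen after seeing the data, boxes with no mismatch were found in 5 bound and 1 unbound members, and a PSE-like pair with 1 mismatch in 13 bound and 0 unbound. The larger sets came with more peaks, a wider window or other members, and causes of the changes were not tested. Depth is unknown.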

Other observations

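F19H8.6, a nested snoRNA gene in mltn-9, chosen after its values were seen, had no summit in the pooled list within 500 bp, yet it ranked 717 with a signal of 33.5 in replicate 1 and 577 with a signal of 34.8 in replicate 2. Its replicate summits lay at −9 bp and −55 bp. It carries the tRNA-like box pair with 1 mismatch, shown here on ce11 with capitals at the searched positions, the mismatch included.

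F19H8.6 A box (chrII:14617081-14617104, plus strand): ctcgcgTGGCgcAGgcggtagcgc
F19H8.6 B box (chrII:14617126-14617149, plus strand): ccacagGTTCgCctCccgtgcgat

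It was the 1 nested member bound in both replicates' own lists and not in the thresholded set. Over the genome, 45 of the 1648 strongest peaks of replicate 1 and 57 of replicate 2 had no pooled summit within 500 bp, and 12 of each were among the strongest peaks of both replicates. The reason for their absence from the pooled list was not tested.

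By chromosome, the bound members were 14 of 36 on V, 10 of 28 on IV, 7 of 35 on II, 6 of 36 on I, 3 of 38 on III and 1 of 10 on X. The share of all genes bound ran from 3.49% on V to 7.29% on X, and differences between chromosomes were not tested. A further snoRNA start lay within 500 bp of 4 of the 41 bound and 30 of the 142 unbound members. The octamer upstream of the largest number of bound members was TGGCGCAG, which matches the A box letters, in 7 of 41 bound and 2 of 142 unbound members.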
